A study of Homo sapiens with 9 samples.

Results

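Gene counts of 5 of the 9 libraries of the series were compared here: 3 control and 2 KDM2A knockdown libraries of TE11, taken by the sample titles, with the other 4 libraries from Kyse150, also split into controls and KDM2A knockdowns. TE11 and Kyse150 are human esophageal squamous cell carcinoma lines. Per the titles the controls carry shNC and the others shKDM2A, per the genotype labels they are controls or knockdowns, and nothing further about the hairpins, the number of hairpins or their delivery was used. The libraries were made from poly(A) RNA. The labels' protocol speaks of 3 independent replicates and does not say what was repeated. The spread that the p-values rest on is therefore that of these libraries and could be technical. All 60683 genes of the TE11 table entered, and 16453 passed the filter on low counts and were tested.

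KDM2A is a JmjC-domain demethylase that removes methyl groups from lysine 36 of histone H3, and its zinc finger binds unmethylated CpG-rich DNA, so that it sits on CpG-island promoters. Squamous esophageal cells are defined by the transcription factor TP63 and by basal keratins such as KRT5. In squamous carcinomas of the esophagus, stretches of chromosome that are gained or lost, such as 11q13, shift the transcripts of many neighbouring genes together, and the antioxidant factor NRF2 is often active.

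The level of the target gene shows whether the labels hold. KDM2A (ENSG00000173120, chr11:67119269-67258087 on the forward strand of GRCh38, GENCODE release 29) stood at 120.0, 116 and 120.0 CPM (counts scaled to library size, with TMM factors) in the TE11 controls. It stood at 126 and 139 CPM in the libraries labelled knockdown, and the groups did not overlap. KDM2A differed by 0.16 on the log2 scale (SE 0.07; adjusted p = 0.0335 by edgeR), so it was not lower where the label says knockdown. Leaving out control replicate 2 (0.13), control replicate 3 (0.15) or the second labelled knockdown replicate (0.10) ended the call. In Kyse150 the knockdowns had less KDM2A, with a log2 fold change of -0.71. Every difference below is therefore one between libraries as labelled.

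The 2 libraries labelled knockdown held 8457767 and 8924443 gene counts and the 3 controls 11421204 to 12073098. Across 12422 protein-coding genes, log2(CPM + 1) correlated at 0.994 to 0.995 among the TE11 controls and at 0.996 between the labelled libraries (Pearson r, a description over genes that share libraries, length and base composition). The labelled libraries correlated at 0.799 to 0.801 with the TE11 controls and at 0.949 to 0.954 with the Kyse150 controls, and the TE11 controls at 0.769 to 0.781 with the Kyse150 controls. Kyse150 values come from a separate table with another annotation, scaled on its own, and no difference between the tables in level was tested. These values put in doubt that the 2 libraries labelled TE11 knockdown come from TE11. In every comparison below that uses these 2 libraries, an effect of the shRNA and a difference between cell lines cannot be told apart.

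Of the 12 markers fixed for squamous esophageal epithelium, 11 had counts in all 5 libraries. Of the 12, 9 were lower in the labelled libraries and 3 were higher (edgeR adjusted p under 0.05). Over all genes tested 42.2% were lower and 35.9% higher. TP63, KRT5 and KRT6B, given next, were among the 9 lower, and BNC1, given further below, was among the 3 higher. TP63 stood at 218, 222 and 228 CPM in the controls and at 124 and 124 CPM in the labelled libraries. KRT5, the basal type II keratin, stood at 2855, 2494 and 2703 CPM against 985 and 1030 CPM. Both were thus present in every library and lower in the labelled ones. KRT6B, a keratin of activated squamous cells, was at 0 in both labelled libraries. In bulk RNA, fewer cells of a type and less RNA per cell cannot be told apart.

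Most of the transcriptome differed between the groups. Of the 16453 genes tested, 78.1% were called, with 35.9% of all tested genes higher and 42.2% lower, and 14.9% were called and at least doubled while 26.4% were called and at least halved. The median log2 fold change over all genes tested was -0.09. These shares are the background against which each group of genes below has to be read: a share near them says nothing about the group.

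The sharpest differences were genes present in one group and without a single count in the other. Of 11745 genes at 5 CPM or more in every TE11 control, 276 (2.35%) had 0 counts in both labelled libraries. In the other direction 2 of 11035 genes (0.0181%) had 0 counts in all 3 controls, and that number was 4 without control replicate 2 or without control replicate 3. The controls are more libraries and deeper ones, which makes a 0 in all of them harder to reach, and the part of this in the difference was not tested. The 276 genes had a median of 13.5 CPM in the controls, from 5.24 to 2457 CPM, and 32 of them were above 50 CPM. They were spread over all 23 chromosomes examined, and 251 are protein-coding.

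The genes at 0 in the labelled libraries were also low or at 0 in the Kyse150 controls. Of the 273 listed in the Kyse150 table, 221 (81.0%) had 0 counts in both Kyse150 controls, 182 had 0 in all 4 Kyse150 libraries, 272 were under 1 CPM in the mean of the Kyse150 controls and none reached 5 CPM there. Among 10047 genes at 5 CPM or more in all 5 TE11 libraries, 30 (0.299%) had 0 counts in the Kyse150 controls. These shares were not tested.

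The protein-coding genes of highest CPM among them (a ranking that longer transcripts enter more easily) were enzymes of sterol synthesis and of detoxification, a membrane scaffold, a secreted binding protein and an ion cotransporter. DHCR7 makes cholesterol from 7-dehydrocholesterol in the last step of its pathway. It (ENSG00000172893, chr11:71428193-71452868, reverse strand) stood at 2595, 2353 and 2424 CPM in the controls and at 0 and 0 in the labelled libraries, on 85260 control counts in all. Taking 3 counts over the labelled group as a floor, which covers counting error only, DHCR7 was at least 14390-fold lower. AKR1C2 (ENSG00000151632) and AKR1C1 (ENSG00000187134) are aldo-keto reductases that share much sequence, so the split of reads between them is uncertain. AKR1C2 stood at 824, 828 and 778 CPM in the controls and at 0 in both labelled libraries, at least 4742-fold lower. AKR1C1 stood at 339.6, 358 and 324 CPM against 0 and 0, at least 1995-fold lower. ALDH3A1, an aldehyde dehydrogenase of squamous epithelia, stood at 381, 337 and 343 CPM against 0 and 0, at least 2071-fold lower.

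STOM, the membrane protein stomatin, held 296, 299 and 297 CPM in the controls and none in the labelled libraries, at least 1742-fold lower. IGFBP4, a secreted binding protein of insulin-like growth factors, held 141, 133 and 137 CPM against none. SLC12A7, a potassium-chloride cotransporter, held 145, 128 and 136 CPM against none. All 7 of these genes were also at 0 in both Kyse150 controls. The 2 genes at 0 in the TE11 controls were low where present: B3GALT5, a galactosyltransferase, stood at 7.68 and 7.34 CPM and KRTAP2-3, a hair keratin-associated protein, at 8.15 and 5.23 CPM in the labelled libraries. Against 3 counts over the controls they were at least 86.9-fold and 77.02-fold higher.

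**Figure D1:**
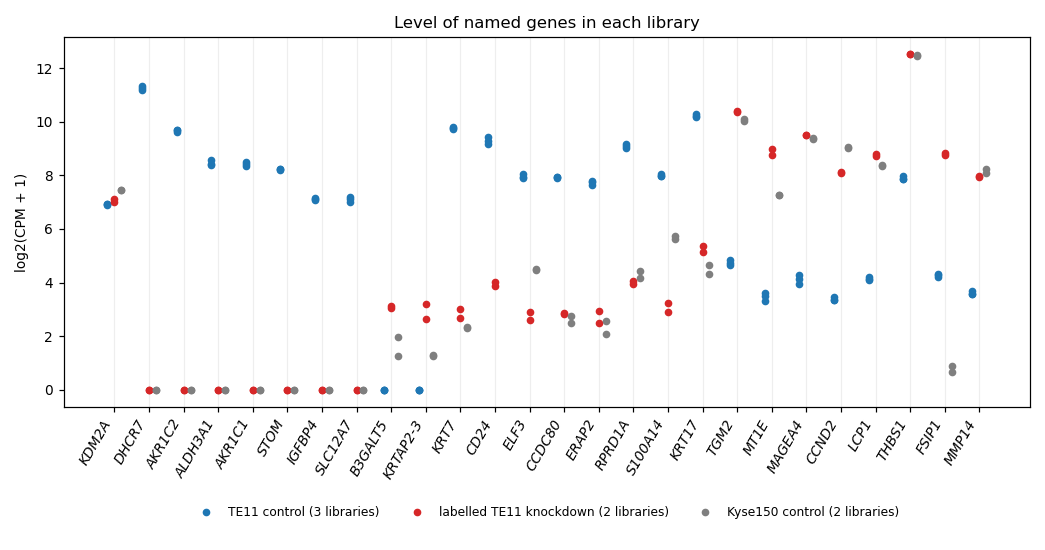
Level of each named gene in each library as log2(CPM + 1) on the vertical axis, with the 3 TE11 controls in blue, the 2 libraries labelled TE11 knockdown in red and the 2 Kyse150 controls, scaled within their own table, in grey. DHCR7, AKR1C2, ALDH3A1, AKR1C1, STOM, IGFBP4 and SLC12A7 lie at 0 in red and grey and far above in blue, while KDM2A is close to level. CD24 has no grey points because no Kyse150 value was matched to it.

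Sequences upstream of 3 genes that fell to 0 or to a single count, and that lie in the groups of genes described below, are shown because KDM2A binds CpG-rich DNA; the 3 were chosen after their values were seen. Each is the 250 bases before the start of the RefSeq transcript (GRCh38.p14), read 5′ to 3′ on the strand of the gene, with every CG in capitals. DHCR7 lies at chr11:71448394-71448643 on the reverse strand, SERPINB3 at chr18:63661894-63662143 on the reverse strand and ZNF468 at chr19:52857620-52857869 on the reverse strand.
DHCR7: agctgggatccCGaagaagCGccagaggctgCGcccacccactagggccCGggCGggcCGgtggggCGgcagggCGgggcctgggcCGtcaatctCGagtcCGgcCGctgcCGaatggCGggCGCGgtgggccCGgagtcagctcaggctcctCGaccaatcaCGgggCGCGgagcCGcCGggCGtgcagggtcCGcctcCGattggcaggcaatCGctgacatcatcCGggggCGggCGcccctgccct
SERPINB3: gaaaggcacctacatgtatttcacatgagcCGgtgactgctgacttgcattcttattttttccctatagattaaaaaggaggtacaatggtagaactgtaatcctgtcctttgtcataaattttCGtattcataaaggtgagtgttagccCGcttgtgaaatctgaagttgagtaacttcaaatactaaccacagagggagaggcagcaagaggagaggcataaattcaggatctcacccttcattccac
ZNF468: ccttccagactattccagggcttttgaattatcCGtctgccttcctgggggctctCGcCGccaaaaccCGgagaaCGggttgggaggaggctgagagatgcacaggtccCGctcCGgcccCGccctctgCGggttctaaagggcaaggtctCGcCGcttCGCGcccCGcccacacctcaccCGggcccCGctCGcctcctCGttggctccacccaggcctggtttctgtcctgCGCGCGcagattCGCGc
The DHCR7 sequence holds 30 CG pairs and is 75.2% G or C, ZNF468 holds 23 and is 66.8% G or C, and SERPINB3 holds 3 and is 40.8% G or C. Genes with 0 or 1 count in the labelled libraries thus had both CpG-dense and CpG-poor starts. A comparison of CpG content over all genes at 0 is limited, because 183 of the 251 protein-coding ones (72.9%) have an entry in the promoter table used. Of these, 66.1% had a CpG ratio (CG pairs found over those expected from the C and G content) of 0.6 or more. Among protein-coding genes at 5 CPM or more in all 5 libraries, 86.0% of 7598 with an entry did (82.8% matched). Genes without an entry could shift both shares, and the difference was not tested.

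Among genes present in both groups, the largest falls included epithelial keratins and surface proteins. KRT7, a keratin of simple epithelia, stood at 896, 843 and 878 CPM in the controls and at 7.10 and 5.34 CPM in the labelled libraries (log2 fold change -7.13, SE 0.10; edgeR adjusted p = 1.09e-43). KRT17, a keratin of basal and activated squamous cells, stood at 1238, 1163 and 1181 CPM against 34.4 and 39.8 CPM, a 32.1-fold lower level. CD24, a surface glycoprotein of epithelial cells, was 43.3-fold lower. ELF3, an epithelial transcription factor, was 43.1-fold lower, S100A14, a calcium-binding protein, 34.1-fold, and CCDC80, a matrix protein, 39.7-fold. ERAP2, which trims peptides for MHC class I, was 37.2-fold lower, and RPRD1A, which binds the tail of RNA polymerase II, 36.5-fold. The rule that named these 8 genes asked for groups without overlap, so the lack of overlap in them is not a result. Of the 7 with a Kyse150 value, all stood lower in the Kyse150 controls than in the TE11 controls, from 4.02 CPM for KRT7 to 50.9 CPM for S100A14.

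The largest rises among genes present in both groups were matrix and migration genes, a metallothionein and a cancer-testis antigen. THBS1, the matrix glycoprotein thrombospondin 1, stood at 229.8, 232 and 251 CPM in the controls and at 5894 and 5824 CPM in the labelled libraries (log2 fold change 4.62, SE 0.06; edgeR adjusted p = 3.17e-46). FSIP1 rose 23.99-fold, but it overlaps THBS1 on the opposite strand and whether counting used strand is not stated, so its counts cannot be told from those of THBS1. TGM2, a transglutaminase that cross-links proteins, stood at 25.6, 28.02 and 24.3 CPM against 1328 and 1357 CPM. MT1E, a metal-binding metallothionein, was 46.0-fold higher and MAGEA4, an X-linked cancer-testis antigen, 44.5-fold. CCND2, a cyclin that drives entry into S phase, was 29.2-fold higher, LCP1, an actin-bundling protein, 25.5-fold, and MMP14, a membrane-bound collagenase, 22.2-fold. A lack of overlap between the groups was a condition for naming these 8 genes too. The mean of the Kyse150 controls was 1074 CPM for TGM2, 5711 for THBS1, 666 for MAGEA4, 328 for LCP1, 287 for MMP14, 520 for CCND2 and 152 for MT1E, all above the TE11 controls. MT1E was lower there than in the labelled libraries (mean 468 CPM) and CCND2 higher (275 CPM). FSIP1 was at 0.566 and 0.874 CPM in the Kyse150 controls, although THBS1 was at 5711 CPM there. Whether the 2 tables count this overlap alike is not known, so the FSIP1 levels cannot be compared between them.

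Changes were then placed along the chromosomes. The 12567 tested protein-coding genes with a GENCODE 29 position on chromosomes 1 to 22 and X were put in order, of which 38.5% were higher and 42.5% lower. The median log2 fold change of each stretch of 11 neighbouring genes was taken, after subtracting the median of all these genes (-0.06). A stretch with a median at or past 1 in size on this centred scale, a doubling or halving or more for the middle gene, was counted. Consecutive stretches past the threshold were joined into runs. Runs parted by a stretch short of the threshold were kept apart even where they share genes. The number of runs is therefore not a number of separate regions. Of 12337 stretches, 3.9% were higher and 8.58% lower, which joined into 64 higher runs holding 1044 genes and 169 lower runs holding 2401 genes. The medians went from -9.36 to 4.92. In the Kyse150 knockdown against its control, none of 11005 stretches reached the threshold (0.0%), and the medians stayed between -0.73 and 0.91. Runs were chosen on the values they show and carry no test, and their number depends on the length of the stretch.

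**Figure D2:**
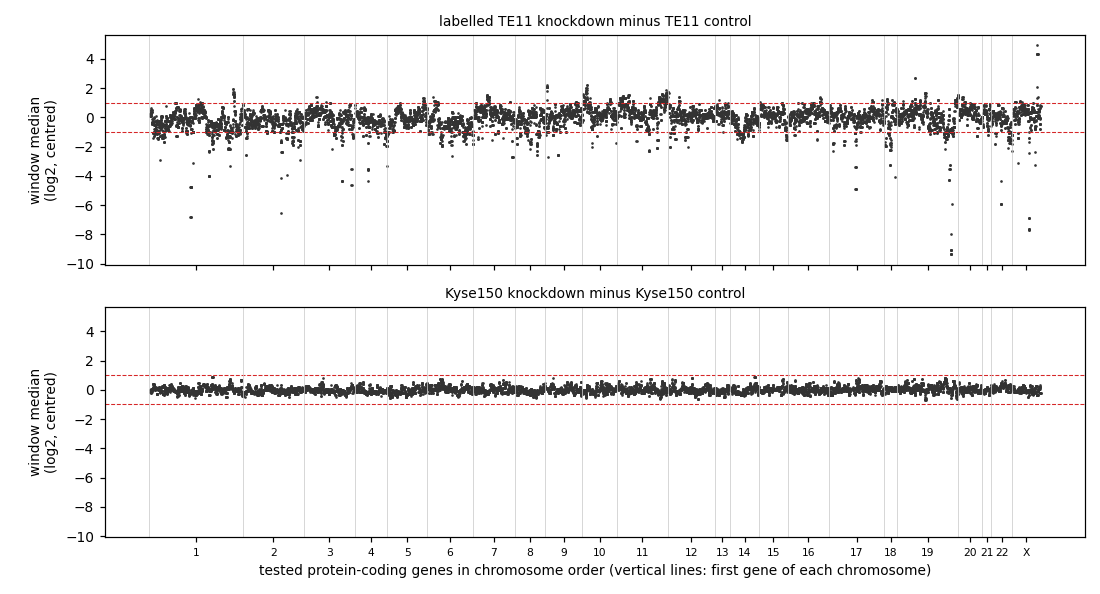
Centred median log2 fold change of 11 neighbouring tested protein-coding genes (vertical axis) against gene order from chromosome 1 to X (horizontal axis), above for the libraries labelled TE11 knockdown minus TE11 control and below for the Kyse150 knockdown minus its control. Dashed lines mark a median of 1 and -1. The TE11 points leave the band in many places, as 64 higher and 169 lower runs, and the Kyse150 points do so in none.

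The levels in the runs were also set beside those of the Kyse150 controls, as a description, since the runs were chosen for a large difference from the TE11 controls. Over the 64 higher runs, the median gene of a run differed by 0.92 (median over runs, log2(CPM + 1)) between the labelled libraries and the TE11 controls and by -0.01 between the labelled libraries and the Kyse150 controls. Over the 169 lower runs the same differences were -1.004 and 0.00. Single runs departed from the Kyse150 controls in both directions, which offset each other in these medians. They did so by -0.523 to 0.598 in the higher runs and by -0.764 to 0.703 in the lower runs. Against the TE11 controls, on which the runs were chosen, the ranges were 0.315 to 1.525 and -1.706 to 0.077. Whole chromosomes shifted too: the centred median was lowest on chromosome 14 (-0.51) and 6 (-0.49) and highest on chromosome 11 (0.43), 10 (0.33) and X (0.32). On chromosome 14, 61.0% of 418 ordered genes were lower, and on chromosome 11, 55.5% of 714 were higher. Chromosome medians in the Kyse150 comparison lay between -0.09 and 0.12. Copy number was not measured here.

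The higher run of largest median was on chromosome 12 from 2812622 to 4538508 (GRCh38), with 11 genes from ITFG2 to C12orf4, a centred median of 1.69, 7 genes higher and 2 lower. FOXM1, a transcription factor of mitotic genes, stood at 66.2, 59.1 and 60.7 CPM in the controls and at 214 and 217 CPM in the labelled libraries. CCND2 belongs to the same run, with 10.0, 9.08 and 9.11 CPM against 276 and 273 CPM. ITFG2, a subunit of a regulator of amino acid signalling to mTORC1, was 3.11-fold higher and TEAD4, a DNA-binding partner of YAP, 1.53-fold higher, whereas TSPAN9, a tetraspanin, was 1.25-fold lower. The run therefore mixed one very large rise with smaller changes in both directions.

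On chromosome 10 from 12129637 to 22714555, 29 of 39 genes were higher and 4 lower (centred median 1.42). MCM10, a DNA replication factor, stood at 26.6, 22.6 and 21.5 CPM in the controls and at 146 and 152 CPM in the labelled libraries. CDC123, a translation factor assembly protein, stood at 77.2, 77.7 and 78.7 CPM against 254 and 267 CPM. SEPHS1, a selenophosphate synthetase homolog, was 3.08-fold higher, and NUDT5, a nucleoside diphosphate hydrolase, 1.99-fold. On chromosome 11 from 123358428 to 134378341, 35 of 45 genes were higher and 7 lower (1.37). APLP2, a relative of the amyloid precursor protein, stood at 335, 317 and 329.7 CPM against 790.0 and 796 CPM. SRPRA, the receptor for the signal recognition particle, stood at 93.0, 88.2 and 98.7 CPM against 382 and 388 CPM. EI24, a protein of the endoplasmic reticulum, and NCAPD3, a condensin subunit, had log2 fold changes of 1.61 and 1.81, and ST14, the protease matriptase, 0.95. Most genes of these 2 runs were higher, by differing amounts: the quartiles of the centred values were 0.46 and 1.84 on chromosome 10 and 0.84 and 1.87 on chromosome 11.

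The fourth higher run, on chromosome 6 from 24774931 to 26227473, had 7 of 11 genes higher and 3 lower (centred median 1.37). GMNN, an inhibitor of replication licensing, stood at 55.1, 63.9 and 59.7 CPM in the controls and at 170.4 and 169 CPM in the labelled libraries. TRIM38, a ubiquitin ligase of innate immune signalling, went the other way, from 39.9, 46.6 and 45.8 CPM to 0 and 0.111 CPM, a ratio of 776 with a 95% counting interval of 139 to 30660 on its single remaining count. CARMIL1, a regulator of actin capping, had a log2 fold change of 0.36, and the histone genes H1-2 and H2AC6 had -0.38 and -0.26. Of the other histone genes of this run, named after their values were seen, H2BC5 was 43.4-fold and H2BC6 2.49-fold higher, H3C6 went from 0 to 30 counts, and H2BC4 was not called (-0.17; adjusted p = 0.561 by edgeR). The median of this run thus stands for an uneven set of genes.

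The lower run of largest median was on chromosome 22 from 32801701 to 36204840, where 10 of 11 genes were lower and 1 higher (centred median -4.38). APOL6, an apolipoprotein L family member, stood at 93.5, 104.8 and 101 CPM in the controls and at 1.75 and 1.45 CPM in the labelled libraries. MCM5, a subunit of the replicative helicase, was the gene that rose, from 128, 114 and 123 CPM to 205 and 216 CPM. HMGXB4, TOM1 and RBFOX2, an RNA splicing factor, fell by 0.46, 0.58 and 0.35 on the log2 scale. The median of this run came from genes that all but vanished beside genes that fell slightly. The run was not found again when control replicate 1, 2 or 3 was left out. It was also lost with stretches of 21 genes and among genes of 5 CPM or more.

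On chromosome 18 from 63586989 to 69055189 a cluster of clade B serpins, protease inhibitors of squamous epithelium, led a run of 11 genes with 7 lower and 4 higher (centred median -4.09). SERPINB3 stood at 184, 207 and 191 CPM in the controls and had 1 count in the labelled libraries together (0 and 0.111 CPM), a ratio of 3408 with a 95% counting interval of 612 to 134600. SERPINB4 stood at 94.3, 111 and 104.6 CPM against 0.116 and 0 CPM; it is nearly identical to SERPINB3, so the split between them is uncertain. SERPINB11 stood at 77.2, 81.7 and 71.9 CPM against 0 and 0, at least 450.3-fold lower, and SERPINB13 at 89.6, 106 and 102 CPM against 3.49 and 3.12 CPM. These 4 were far lower, but the cluster did not move as one. Of its other genes, named after their values were seen, SERPINB2 stood at 0.0886, 0.436 and 0.0836 CPM in the controls and at 4.31 and 3.56 CPM in the labelled libraries, SERPINB8 was 1.92-fold higher, and SERPINB7 fell by 0.33 on the log2 scale. TMX3, an oxidoreductase of the endoplasmic reticulum, was higher by 0.34 on the log2 scale (SE 0.09; adjusted p = 0.000689 by edgeR). In the Kyse150 controls SERPINB3, SERPINB4 and SERPINB11 were at 0. The run was not found again without control replicate 2 or control replicate 3. It was also lost with stretches of 21 genes, with all tested genes and among genes of 5 CPM or more.

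A zinc finger cluster on chromosome 19 from 51964343 to 54115675 gave 20 lower and 3 higher genes of 25 (centred median -2.45), and 8 of the genes at 0 in the labelled libraries lay in it. ZNF761, a zinc finger protein, stood at 48.2, 52.9 and 55.1 CPM in the controls and at 0.582 and 1.001 CPM in the labelled libraries. ZNF28, ZNF331 and ZNF468, named after their values were seen, stood at 42.3, 30.3 and 20.8 CPM in the mean of the controls and at 0 in both labelled libraries and both Kyse150 controls. ZNF845 and MYADM, a myeloid-associated membrane protein, fell by 0.96 and 0.61 on the log2 scale, ZNF480 rose by 0.34, and PPP2R1A, the scaffold of a protein phosphatase, was not called (-0.01, SE 0.06; adjusted p = 0.916 by edgeR). Genes at 0 and genes that barely changed thus lay within the same 2.15 Mb. Zinc finger genes of this cluster are close paralogs, so counts between them may be split.

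On X from 135020504 to 136211359, 9 of 11 genes were lower and 1 higher (centred median -3.27). RTL8C, derived from a retrotransposon, stood at 27.3, 23.4 and 25.8 CPM in the controls and at 0 in both labelled libraries, and its close copy RTL8A at 26.04, 21.5 and 25.2 CPM against 13.7 and 14.6 CPM. MMGT1, a membrane protein, had a log2 fold change of 0.26 and ZNF75D -0.83. The run on X was not found again without control replicate 1 or control replicate 3. It was also lost with stretches of 21 genes and among genes of 5 CPM or more. The run with the most genes was on chromosome 14 from 49570984 to 62112550, where 71 of 79 genes were lower and 4 higher; its centred median was -1.12, with quartiles of -1.65 and -0.84. This run was chosen for its number of genes after the values were seen.

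**Figure D3:**
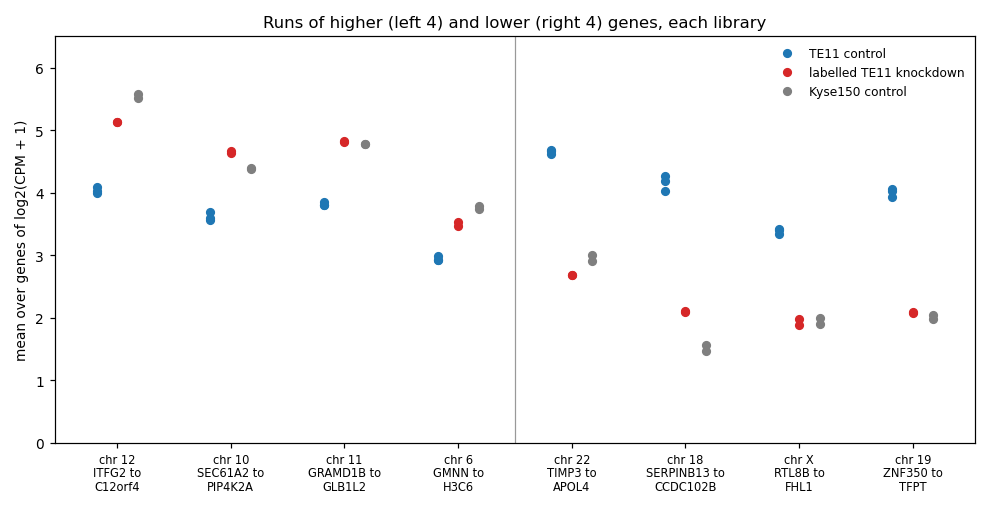
Mean of log2(CPM + 1) over the genes of each of the 8 runs named in the text (vertical axis), 1 point per library, with TE11 controls in blue, libraries labelled TE11 knockdown in red and Kyse150 controls in grey. The runs were chosen for the distance between red and blue; for the chromosome 22 run the means are 4.61 to 4.68 in blue, 2.68 and 2.69 in red, and 2.90 and 3.00 in grey.

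Chromosome 11 is the chromosome of KDM2A and of CCND1, around which 11q13 is often amplified in squamous carcinomas. The genes listed here for 11q13 run from LRP5 to NADSYN1 and leave out KDM2A, so the list does not stand for the whole region. Of 16 tested genes listed for 11q13, 14 were lower in the labelled libraries and 1 was higher, with a median log2 fold change of -1.74, against 42.2% lower and 35.9% higher over all genes tested. CTTN, the actin-binding protein cortactin, stood at 2793, 2533 and 2649 CPM in the controls and at 281 and 264 CPM in the labelled libraries, a 9.75-fold lower level. CPT1A, which carries fatty acids into mitochondria, stood at 357, 345 and 351 CPM against 14.7 and 16.9 CPM. NADSYN1, an enzyme of NAD synthesis next to DHCR7, was 21.7-fold lower and PPFIA1, a liprin, 5.18-fold lower. FADD, an adaptor of death receptors, was 2.30-fold lower. The change in CCND1, which encodes cyclin D1, was smaller, from 767, 772 and 768 CPM to 558 and 547 CPM (log2 fold change -0.48, SE 0.06; edgeR adjusted p = 1.99e-10). SHANK2, a synaptic scaffold, was the exception, with 1.06, 0.960 and 1.504 CPM against 12.7 in each CPM. LRP5, a WNT coreceptor at the edge of the list, was not called (-0.12, SE 0.07; edgeR adjusted p = 0.152).

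The stretch was then set beside the rest of the chromosome. Between LRP5 and NADSYN1 (chr11:68312609-71524107) 15 of 18 ordered genes were lower and 1 higher, with a centred median of -1.64. Of the 432 genes before it on the chromosome, 53.2% were higher and 28.9% lower (0.35), and of the 264 genes after it, 62.5% were higher and 25.4% lower (0.83). The shares before and after cover all ordered genes up to the chromosome ends, not the nearest neighbours: the 10 Mb bin from 60000001 to 70000000, which also holds KDM2A, had a centred median of 0.01. Right after NADSYN1 lay a higher run of 11 genes, from FAM86C1P to PDE2A (71787510 to 72674591). There 8 genes were higher and 0 lower, with a centred median of 1.295. In the Kyse150 comparison the same 3 segments had centred medians of -0.02, 0.04 and -0.02. The bounds of these segments follow from the gene list.

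**Figure D4:**
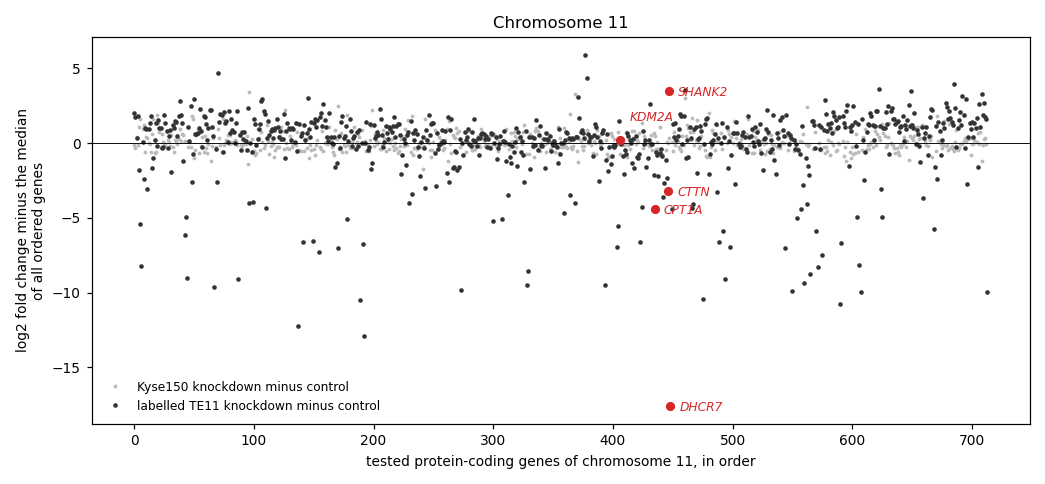
Log2 fold change minus the median of all ordered genes (vertical axis) for each tested protein-coding gene of chromosome 11 in order (horizontal axis), in black for the libraries labelled TE11 knockdown minus TE11 control and in grey for the Kyse150 knockdown minus its control, with named genes in red. DHCR7, CTTN and CPT1A lie far below 0, SHANK2 above it and KDM2A near it, and the black points to the right of them lie mostly above 0, where 62.5% of 264 genes were higher.

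No member of the NRF2 and detoxification list was higher. NRF2 is a transcription factor that switches on glutathione, thioredoxin and detoxifying enzymes. Of 36 tested members 33 were lower and 0 higher (edgeR adjusted p under 0.05), with a median log2 fold change of -1.84. Besides AKR1C2, AKR1C1 and ALDH3A1, FTL, the light chain of the iron store ferritin, stood at 6418, 5880 and 5763 CPM in the controls and at 273 and 242 CPM in the labelled libraries (log2 fold change -4.55, SE 0.07; edgeR adjusted p = 8.42e-43). FTL has processed pseudogenes, so its count is uncertain. TXNRD1, a thioredoxin reductase, stood at 722, 742 and 708 CPM against 311 and 290.0 CPM, and GCLM, a subunit of the first enzyme of glutathione synthesis, at 158, 167 and 164 CPM against 113 and 114 CPM. Both were lower in every labelled library than in every control, but 42.2% of all genes tested were called lower. Both were named after their values and promoters were seen, because their promoters carry the core of the antioxidant response element that NRF2 binds, searched as TGACNNNGC on both strands (overlaps with other motifs were not searched) in the 250 bases before the RefSeq start. TXNRD1 lies at chr12:104215529-104215778 on the forward strand and GCLM at chr1:93909431-93909680 on the reverse strand (GRCh38.p14), with the match in capitals.
TXNRD1: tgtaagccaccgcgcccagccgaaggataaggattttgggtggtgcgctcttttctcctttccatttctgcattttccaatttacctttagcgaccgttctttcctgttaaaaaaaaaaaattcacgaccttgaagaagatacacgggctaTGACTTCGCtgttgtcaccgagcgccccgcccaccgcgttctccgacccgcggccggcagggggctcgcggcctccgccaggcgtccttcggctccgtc
GCLM: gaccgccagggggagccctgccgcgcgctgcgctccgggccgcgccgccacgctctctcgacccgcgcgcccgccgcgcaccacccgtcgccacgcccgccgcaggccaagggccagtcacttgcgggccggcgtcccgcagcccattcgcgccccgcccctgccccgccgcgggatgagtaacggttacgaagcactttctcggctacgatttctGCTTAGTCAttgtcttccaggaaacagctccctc
The same letters stand in 3004 of 27195 promoters of this length, a share of 11%. Of the 37 list members 25 (67.6%) have an entry and 7 of them hold a match; with so many members missing, a check over the list is void.

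Cholesterol and lipid synthesis was lower in most of its members: 25 of 31 were lower and 3 higher, with a median log2 fold change of -1.43. HMGCS1, which makes the precursor HMG-CoA, stood at 1571, 1823 and 1705 CPM in the controls and at 109 and 117 CPM in the labelled libraries. SQLE, the squalene epoxidase, stood at 457, 485 and 441 CPM against 49.2 and 44.4 CPM, and SCD, a fatty acid desaturase, was 6.01-fold lower. Of the members, 2 were at 0 in both labelled libraries, DHCR7 among them. Of the 28 members tested in Kyse150, 14 were lower and 3 higher in its own comparison.

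Squamous and epithelial genes were more often lower than higher. In the basal squamous list 20 of 31 were lower and 8 higher (median -0.86). In the list of junction genes and their regulators 21 of 30 were lower and 7 higher (-0.65). In the squamous differentiation list 10 of 18 were lower and 6 higher (-0.90). Its shares of 55.6% lower and 33.3% higher are not far from the 42.2% and 35.9% over all genes tested. KRT15, a basal keratin, stood at 868, 769 and 825 CPM in the controls and at 24.6 and 28.04 CPM in the labelled libraries. NGFR, a receptor of basal stem cells, was 129-fold lower and COL7A1, the collagen of anchoring fibrils, 8.69-fold lower. KRT13 and KRT4, the keratins of the upper layers of the esophagus, went from 189, 156 and 163 CPM to 1.28 and 1.11 CPM, and from 17.5, 15.1 and 16.0 CPM to 0 in both. Of 16 tested genes of 3q26 to 3q28, a region often gained in squamous tumours, 9 were lower and 3 higher (-0.32), or 56.25% and 18.75%. Among them SOX2, a factor of squamous progenitors, stood at 21.2, 20.2 and 22.4 CPM in the controls and had 1 count in the labelled libraries, a ratio of 374 with a 95% counting interval of 66.9 to 14800. CLDN1, a tight junction claudin, stood at 44.1, 49.0 and 49.6 CPM against 0 and 0. Not every gene of these lists was lower: ANXA1, an abundant annexin, was 2.21-fold higher, KLK5, a kallikrein protease, 2.85-fold, and BNC1, a basal zinc finger factor among the 12 markers above, 4.50-fold.

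Genes of junctions with large falls were MAL2, a transport protein of the apical membrane (12.4-fold lower), and TJP3, a tight junction scaffold (80.8-fold lower). Simple-epithelium keratins split. KRT8 stood at 2047, 1781 and 1841 CPM in the controls and at 4312 and 4435 CPM in the labelled libraries, and KRT18 was 1.96-fold higher, whereas KRT7, described above, and KRT19 were lower. KRT8 and KRT18 overlap on opposite strands, so a small part of their counts is uncertain. In the columnar and glandular list as a whole 10 of 16 were lower and 5 higher, with a median of -3.74, or -2.62 with a gene at 0 set to its bound. Its summed level was nevertheless higher in the labelled libraries, at 6186 to 6386 CPM against 3819 to 4195 CPM in the controls, and KRT8 and KRT18 hold most of it. FOXA1, a factor of glandular epithelium, was 23.97-fold lower, and AGR2, a mucin-folding enzyme, went from 14.1, 14.2 and 13.8 CPM to 0 in both.

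Mesenchymal and matrix genes moved in both directions by large amounts. Of 26 tested members of the mesenchymal list 14 were higher and 11 lower, with a median of 1.22, and every one of the 14 at least doubled. AXL, a receptor tyrosine kinase, stood at 58.7, 56.9 and 57.5 CPM in the controls and at 664 and 702 CPM in the labelled libraries. SPARC, a collagen-binding matrix protein, stood at 405, 404 and 396 CPM and had 2 counts in the labelled libraries together, a ratio of 3530 with a 95% counting interval of 977 to 29150. TGFBI, a matrix protein induced by TGF-beta, was 146-fold lower. The direction of the list thus depends on which of its genes is read.

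Of 23 integrin and basement membrane genes 14 were lower and 8 higher (median -1.44), and of 22 matrix proteases and inhibitors 11 were lower and 10 higher (-0.42). ITGB6, an integrin of epithelia, was 212-fold lower, LAMB2, a laminin chain, 6.01-fold, COL5A1, a fibrillar collagen, 161-fold, and AGRN, a heparan sulfate proteoglycan, 2.88-fold. ADAMTS1, a secreted protease, was 11.3-fold higher, at 3.90, 4.19 and 6.02 CPM in the controls and 52.6 and 54.5 CPM in the labelled libraries. The shares of the protease list, 11 of 22 lower and 10 of 22 higher, are not far from the background of 42.2% and 35.9%.

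Genes of innate and adaptive immune signalling were mostly lower. Interferon-stimulated genes were lower in 28 of 35 and higher in 4 (median -3.23), MHC class I genes lower in 14 of 19 and higher in 4 (-1.52), and NF-kB and inflammatory genes lower in 20 of 26 and higher in 2 (-1.50). PARP14, an interferon-induced ADP-ribosyltransferase, stood at 118, 126 and 123 CPM in the controls and at 7.22 and 8.46 CPM in the labelled libraries. GBP1, a guanylate-binding protein, stood at 47.6, 48.3 and 47.0 CPM against 0 and 0, and IRF1, a transcription factor of this response, was 5.88-fold lower. B2M, the light chain of MHC class I, stood at 655, 678 and 647 CPM against 117 and 131 CPM. HLA-B held 70.5, 73.8 and 71.9 CPM in the controls and 1 count in the labelled libraries; HLA genes are polymorphic paralogs, and reads of some alleles may not be assigned. CD274, which encodes the checkpoint ligand PD-L1, went against its list, from 2.04, 2.09 and 1.59 CPM to 146 and 148 CPM. NFKBIA, the inhibitor of NF-kB, was 7.93-fold lower, TNFAIP2 6.96-fold, ZC3H12A, an RNase that limits inflammation, 19.4-fold and BIRC3, an inhibitor of apoptosis, 17.9-fold.

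NOTCH genes, which direct squamous differentiation, were lower in 15 of 19 and higher in 4 (median -1.75). NOTCH3 stood at 289, 260.4 and 289.9 CPM in the controls and at 2.56 and 1.67 CPM in the labelled libraries. NOTCH1 was 5.15-fold lower, its ligand gene DLL1 8.52-fold and its target HES1 2.65-fold, whereas NOTCH2 was 1.14-fold higher (edgeR adjusted p = 0.0175). In Kyse150's own comparison 9 of 17 tested genes of this list were higher and 3 lower.

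Ribosome biogenesis genes were higher in 51 of 60 and lower in 4 (median 0.90), DNA replication genes higher in 33 of 48 and lower in 11 (0.54), and mitotic genes higher in 24 of 48 and lower in 17 (0.21). RRP12, which exports ribosomal subunits, stood at 34.3, 31.8 and 36.9 CPM in the controls and at 236 and 245 CPM in the labelled libraries. NIP7, NOP16 and UTP4, which process ribosomal RNA, were 3.5-fold, 3.11-fold and 2.79-fold higher. RRM2, a subunit of ribonucleotide reductase, stood at 192, 196 and 192 CPM against 617 and 631 CPM, and MCM3, of the replicative helicase, was 2.64-fold higher. TYMS, the thymidylate synthase, went the other way, from 484, 468 and 461 CPM to 139 and 145 CPM. Among mitotic genes FOXM1, ANLN (2.70-fold) and CENPF (2.68-fold) were higher and NDC80, a kinetochore protein, 3.29-fold lower. In Kyse150's own comparison these 3 lists had 0, 0 and 1 members higher and 51 of 59, 36 of 47 and 38 of 50 lower.

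Cancer-testis antigens, germline genes that some tumours express, were higher in 6 of 6 tested members (median 5.25), and 17 of the 27 listed had 0 counts in all 5 libraries. MAGEA4 stood at 18.2, 14.3 and 16.5 CPM in the controls and at 729 and 728 CPM in the labelled libraries. MAGEA6, MAGEA12 and CSAG1 were 38.6-fold, 37.4-fold and 31.2-fold higher and MAGEA3 2.38-fold. These genes are neighbours on X and close paralogs, so they are not independent of each other. The cyclin-dependent kinase inhibitor CDKN2A on 9p21 stood at 7.79, 6.89 and 8.36 CPM against 113 and 109 CPM, and its neighbour CDKN2B at 0.620, 0.436 and 0.836 CPM against 4.89 and 7.79 CPM; of 9 tested 9p21 genes 4 were higher and 3 lower. In the Kyse150 controls CDKN2A stood at 134 and 146 CPM.

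Stress, signalling and patterning lists were closer to the background. ATF4 and unfolded protein response genes were higher in 18 of 40 and lower in 16 (median 0.10), hypoxia and glycolysis genes lower in 19 of 35 and higher in 12 (-0.41), receptor tyrosine kinase genes lower in 19 of 34 and higher in 12 (-0.34), and HOX genes lower in 11 of 24 and higher in 8 (-0.60). Single members still differed widely. DDIT4, an inhibitor of mTORC1, was 6.81-fold lower and NUPR1, a stress-induced nuclear protein, went from 46.0, 45.3 and 49.9 CPM to 0 in both. EGLN3, an oxygen-sensing hydroxylase, went from 77.2, 73.8 and 69.6 CPM to 0 in both, and ALDOC, a glycolytic aldolase, was 204-fold lower. EGFR stood at 141, 149 and 167 CPM in the controls and at 497 and 489 CPM in the labelled libraries, and FGFR3 was 22.1-fold lower. HOXC13 was 6.92-fold lower and HOXB4 12.1-fold higher.

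Genes of the demethylase family and of lysine 36 methylation gave shares near the background as well. Of 23 JmjC genes 8 were higher and 7 lower (median -0.01), a count of 5 higher without labelled knockdown replicate 2, and of 22 genes that write or read lysine 36 methylation 10 were higher and 8 lower (0.06). KDM5B, a histone demethylase, stood at 214, 221 and 223 CPM in the controls and at 18.04 and 18.25 CPM in the labelled libraries. KDM3A, another histone demethylase, was 5.63-fold lower and KDM4C 3.33-fold higher. PHF19, a reader of lysine 36 methylation, was 4.13-fold higher and DNMT3B, a DNA methyltransferase that also reads it, 4.52-fold lower. Metallothioneins and their regulators were higher in 4 of 6 and lower in 1, with MT2A at 291, 276 and 288 CPM against 2497 and 2326 CPM.

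**Figure D5:**
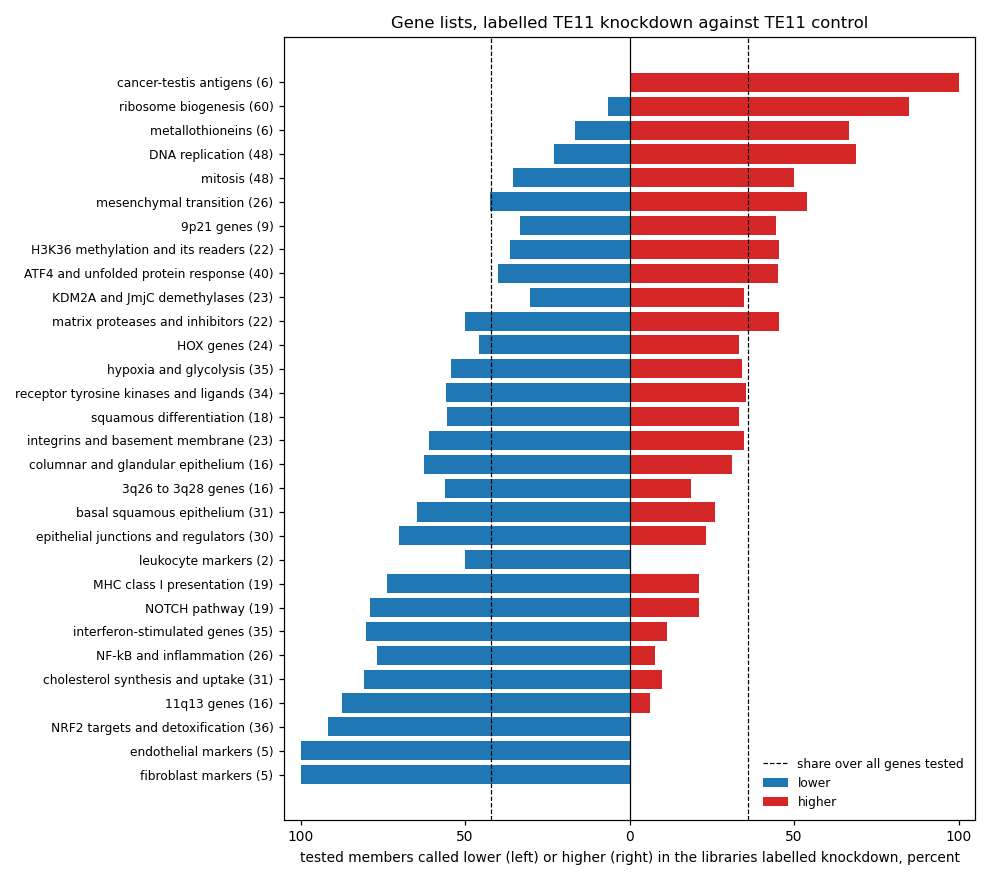
Share of the tested members of each list (number in brackets) that were called lower (blue, to the left) or higher (red, to the right) in the libraries labelled TE11 knockdown, in percent on the horizontal axis. Dashed lines mark the same shares over all 16453 genes tested, 42.2% lower and 35.9% higher. NRF2 targets, 11q13 genes and cholesterol genes reach furthest to the left among lists of more than 5 tested genes, and cancer-testis antigens and ribosome biogenesis furthest to the right.

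Markers of other cell types were low in every library. The 14 fibroblast markers together gave 53.9 to 57.5 CPM in the controls and 20.8 to 23.5 CPM in the labelled libraries, 5 of 14 could be tested and all 5 were lower. FAP was at 8.86, 9.25 and 8.44 CPM against 0 and 0, and PDPN, which squamous cells also make, at 25.4, 24.4 and 25.9 CPM against 16.6 and 18.5 CPM. The 14 leukocyte markers gave 3.49 to 3.99 CPM and 2.44 to 3.67 CPM, with PTPRC, the common leukocyte antigen, at 0 in all 5 libraries. Of the 2 tested, 1 was lower, and that call was lost without control replicate 1 or control replicate 3. The 12 endothelial markers gave 69.6 to 78.7 CPM and 13.02 to 13.27 CPM, nearly all of it EGFL7 (67.7, 60.7 and 60.7 CPM against 11.5 and 10.8 CPM). Their part in the results was not tested.

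The difference in TE11 was set against the one in Kyse150 in 1 fit of all 9 libraries. It took genes listed in both tables, of which 15895 passed the filter over the 9 libraries together. A gene could pass through the libraries of 1 line alone. The 2 differences departed from each other for 10633 genes (66.9%; edgeR adjusted p under 0.05), of which 5370 were relatively higher and 5263 relatively lower in TE11. In Kyse150 alone 48.2% of 14060 genes were called. For KDM2A itself the TE11 difference exceeded the Kyse150 difference by 0.90 (SE 0.10; edgeR adjusted p = 1.06e-11), with KDM2A lower in the Kyse150 knockdown and not in the libraries labelled TE11 knockdown.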

How the data were processed

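The authors deposited 1 table for each line, holding raw counts per gene without normalization. HTSeq 0.9.1, HISAT2 2.1.0, DESeq2 and bcl2fastq 2.19 appear as tools per the submitters' processing notes; which genome build each table used and the strand setting are not given in the sources used here. Summary rows (fragments on no gene: 42.3% to 42.8% of a TE11 column) were left out. The 13 mitochondrial protein-coding genes hold 0 counts in TE11 and were not tested.

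Genes kept by filterByExpr (minimum count 10, total 15) were scaled by TMM and tested with edgeR 4.0.16 (robust quasi-likelihood, group only) in R 4.3.3; p-values were adjusted by Benjamini-Hochberg over the whole table and called under 0.05. Gene positions come from GENCODE 29 (GRCh38), matched by gene identifier, and promoters from RefSeq. In simulated data of 16453 genes, 100 genes of higher counts were changed 1.5-fold and 100 were changed 2-fold. Of these, 78% and 99% were recovered, and 3.8% of calls were false. In the data 78.1% of genes were called, so the simulation does not give the false share of the real calls. Replicates differed by more than counting noise (chi-square per degree of freedom 1.62 to 4.92).

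Named were KDM2A; the 8 genes of highest CPM at 0 in 1 group and at 5 CPM or more in the other; the 8 largest changes per direction with 5 CPM or more in both groups and no overlap; the 4 members of a list with the smallest p, or any member of a list with 20 or fewer tested; and the 5 members of highest CPM in the 4 runs of largest median per direction. The members, the lists and this rule were chosen with earlier results of these data known. Some genes that the rule selects are not reported here. Alternatives were DESeq2 1.42.0, other scalings and filters, the replicate block, other window settings and each library left out.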

Additional observations from a re-analysis of the deposited data

Results flagged for a closer look

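The difference between libraries labelled shKDM2A and shNC was not the same in the 2 tables. Whether the labelled TE11 libraries come from TE11 is in doubt (correlation with Kyse150 controls 0.949 to 0.954, with TE11 controls 0.799 to 0.801). In the TE11 difference and in its contrast with Kyse150, an shRNA response and a cell line difference therefore cannot be told apart. KDM2A changed by 0.16 in TE11 and by -0.71 in Kyse150 on the log2 scale, a difference of 0.897 (edgeR adjusted p = 1.06e-11), higher in 2 of 2 labelled TE11 libraries than in every TE11 control. Of 15895 genes listed in both tables and tested in 1 fit of all 9 libraries, 10633 differed between the 2 comparisons (edgeR adjusted p under 0.05). Groups of 2 and 3 libraries are too small for a check of single outlying libraries.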

How the results depend on the processing

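The numbers of genes called higher and lower stayed within 1.5 times of 5900 and 6945 under every alternative run (5348 to 6064 higher, 6479 to 7674 lower), and DESeq2 gave 5401 and 6492. The call on KDM2A in TE11 was lost with DESeq2 (0.15, adjusted p = 0.0739), upper quartile scaling (0.10, edgeR adjusted p = 0.185), no filter on low counts (0.16, 0.0546), a filter at 1 CPM in every library of 1 group (0.14, 0.0659) and the replicate block (0.17, 0.0838), and leaving out 1 library gave 0.10 to 0.24. Deviations from the group mean correlated at -0.01 to 0.01 between control and labelled libraries. The deviations of the 2 labelled libraries mirror each other, so these values cannot decide whether the replicate numbers pair the libraries. The replicate block called 12218 genes against 12845. Genes at 0 in the labelled libraries numbered 480 from 2 CPM and 165 from 10 CPM, and genes at 0 in the controls 5, 0 and, with under 0.1 CPM counted as off, 6, with 2 to 4 when 1 library was left out. Higher runs numbered 25 with stretches of 21 genes, 146 with 7, 116 with all tested genes, 166 at a threshold of 0.75 and 37 among genes of 5 CPM or more; lower runs 78 with 21 genes, 288 with 7 and 92 among genes of 5 CPM or more. The 8 named runs were found again in 3 cases with 21 genes, 8 with 7 genes, 6 with all tested genes and 8 at 0.75. They were found again in 4 cases among genes of 5 CPM or more and in 5 to 8 with 1 library left out. The runs on chromosomes 10, 11 and 19 were found again in each of these settings. The run on chromosome 12 was lost with 21 genes and among genes of 5 CPM or more. The run on chromosome 6 was lost with 21 genes, with all tested genes and without labelled knockdown replicate 1. JmjC genes higher were 5 with upper quartile scaling and 5 to 8 with 1 library left out; leukocyte markers lower were 2 with no filter, 0 with the 1 CPM filter and 0 to 1 with 1 library left out. The cause of these changes was not tested.

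Depth limits the genes at 0: the labelled libraries hold about 8457767 to 8924443 gene counts each, and a count of 0 in both allows up to 3 counts. The 2 tables differ in annotation, so a 0 in Kyse150 can also be a gene model that takes no reads there.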
